A study of Mus musculus with 12 samples.

Results

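The 35 genes described here encode proteins of the acrosome and of the perinuclear theca, and they were taken by gene symbol from the 21429 symbols of both deposited count tables. All 35 were in both tables, and all 35 passed the filter on low counts in both cell types. RNA had been sequenced from pachytene spermatocytes (PS), meiotic cells of mid-prophase, and from round spermatids (RS), haploid cells that have completed meiosis. Knockout (KO) mice were Stra8-cre/Hdac3fl/-, with a floxed and a null allele of the histone deacetylase gene Hdac3 and a Cre transgene under the Stra8 promoter, which drives recombination in germ cells before meiosis. Control mice were Hdac3fl/+ by their titles and are given as wild type in the genotype label, and no Cre is named for them, so the loss of HDAC3, the null allele and the presence of Cre cannot be told apart. The 4 groups were KO RS, control RS, KO PS and control PS, with 3 libraries each that the submitters call biological triplicates. For the age of the mice, the way cells were isolated and any pooling of animals, the labels name nothing.

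The acrosome is a vesicle made from the Golgi apparatus that spreads over the nucleus of the spermatid. It holds proteases, hyaluronidases and zona pellucida binding proteins that are released or exposed before fertilization. Its growth needs transport of Golgi vesicles, and its position depends on proteins of the nuclear envelope and on the perinuclear theca, a rigid layer of actin-related proteins, calicin and cylicins between the acrosome and the nucleus. In mice, loss of several of these genes gives round-headed sperm or a detached acrosome. Some of the genes are transcribed from pachytene onwards and others mainly after meiosis, when the activator CREM binds cAMP response elements and RFX factors bind X-boxes in promoters of spermatid genes.

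The promoters of 4 members from different roles, all described below, are printed as examples. Ccin holds a full cAMP response element, Spaca1 the core of one, Pdcl2 arms of an X-box, and Acrv1 none of these. The table of promoters from RefSeq on GRCm38.p6 held 30 of the 35 members. The 250 bases before the start site are shown 5′ to 3′ in the gene's sense, with matches in capitals.
Ccin (chr4:43983254-43983503, + strand): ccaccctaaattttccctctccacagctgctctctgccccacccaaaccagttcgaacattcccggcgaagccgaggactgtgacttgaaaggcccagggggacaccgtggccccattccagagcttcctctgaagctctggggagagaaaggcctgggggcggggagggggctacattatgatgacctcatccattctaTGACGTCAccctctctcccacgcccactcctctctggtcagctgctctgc
Spaca1 (chr4:34050066-34050315, - strand, the first of its listed start sites): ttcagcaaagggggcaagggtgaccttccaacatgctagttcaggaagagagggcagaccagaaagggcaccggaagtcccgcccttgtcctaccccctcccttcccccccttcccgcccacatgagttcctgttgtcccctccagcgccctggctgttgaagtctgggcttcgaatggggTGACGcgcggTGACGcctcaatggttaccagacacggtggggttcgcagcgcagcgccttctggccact
Pdcl2 (chr5:76331157-76331406, - strand): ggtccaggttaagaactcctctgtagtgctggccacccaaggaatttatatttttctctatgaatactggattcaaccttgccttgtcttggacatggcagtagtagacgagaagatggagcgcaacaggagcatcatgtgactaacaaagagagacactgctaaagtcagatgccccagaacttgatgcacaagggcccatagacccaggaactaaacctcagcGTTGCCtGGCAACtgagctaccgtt
Acrv1 (chr9:36692970-36693219, + strand): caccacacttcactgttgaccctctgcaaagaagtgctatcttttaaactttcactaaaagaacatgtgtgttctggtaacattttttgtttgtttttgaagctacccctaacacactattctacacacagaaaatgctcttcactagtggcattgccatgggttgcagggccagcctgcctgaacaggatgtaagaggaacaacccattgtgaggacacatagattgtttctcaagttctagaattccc
Matches were searched on both strands from 250 bases before to 50 bases after each start site. The full cAMP response element TGACGTCA was in Ccin alone, 50 bases before its start site, which is 3.3% of the members with a promoter against 2.0% of 27025 genes. Its core TGACG, which lies within the full element, was in 10 members (33.3%) against 23.0% of all genes, and Spaca1 held 2 copies 69 and 59 bases before its first start site. The X-box arm GTTGCC was in 7 members (23.3%) against 14.1% of all genes, and in Pdcl2 both of its strands stood side by side 25 and 18 bases before the start site. Acrv1 held none of these letters in this window. A match is a string of letters and not a binding site.

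Gene counts ranged from 11205732 to 17467583 per library. Levels are given as scaled CPM, the CPM of each library after the TMM scaling of edgeR over all 12 libraries, and 3 values for a group are always replicate 1, replicate 3 and the remaining replicate, whose column matches its group and no single sample title. Hdac3 itself had 13.5, 14.0 and 17.1 scaled CPM in KO RS, against 42.3, 48.7 and 52.9 in control RS. In PS it had 17.8, 17.9 and 24.8 scaled CPM in KO cells and 61.9, 53.0 and 82.5 in control cells, so the libraries matched their genotype labels. Each member had at least 4.63 scaled CPM in each library, where the floor of 3 counts was worth 0.172 to 0.268 CPM. The 35 members together took 0.694% to 0.749% of the counts in KO RS and 0.865% to 1.04% in control RS, and 0.487% to 0.547% in KO PS and 0.523% to 0.658% in control PS. Fewer cells of a type and less RNA per cell cannot be told apart in such bulk libraries.

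In KO RS, 23 of the 35 members fell relative to control RS and 1, Gopc, rose, at an adjusted p under 0.05 in the edgeR quasi-likelihood test. Among all 15934 genes tested in RS, 12.4% were called lower and 18.7% higher, 31.0% in all. The falls included the hyaluronidases Spam1 and Hyal5, all 4 lysozyme-like proteins, the acrosomal membrane proteins Eqtn and Spaca1 and the theca proteins Ccin, Capza3, Actl7a, Actl7b and Actl9. The median log2 fold change of KO over control RS was -0.71 over the members and 0.02 over all genes, and 34 of 35 members had a value below 0, of which Actrt1, Agfg1 and Tmf1 turned above 0 with library size alone as scaling. Every KO library lay below every control library for 26 members, against 21.8% of all genes, and above for 1 member, against 25.7%. Beside these values, 7 of 10 spermatogonial and 7 of 8 macrophage marker genes were called higher in KO RS. Of 12 spermatid markers outside the acrosome 1 was called lower, and all 12 had a log2 fold change below 0.

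In KO PS, 13 members fell relative to control PS and 0 rose, where 4.50% of 15272 genes were called lower and 0.910% higher, 5.41% in all. At an unadjusted p under 0.05, 19 members were lower and 1 was higher. The median log2 fold change in PS was -0.59 over the members, -0.39 without control PS replicate 3, and 0.06 over all genes, and 28 of 35 members had a value below 0, with Dpy19l2, Pick1 and Tmprss12 changing side of 0 under other scalings. Every KO PS library lay below every control PS library for 20 members, against 15.5% of all genes, and above for 0 members, against 8.63%. All 13 members that fell in KO PS also fell in KO RS, and the other 10 falls in RS were not called in PS. Marker genes of spermatids outside the acrosome moved with this, with 10 of 12 called lower in KO PS.

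The effect in RS minus the effect in PS passed the test for 0 of the 35 members, and 3 of 16581 genes (0.0181%) were called in that interaction. In the same test with a replicate block, 1285 genes and again 0 members were called. At an unadjusted p under 0.05, Acr and Zpbp were lower in this difference and 0 members were higher. A call in RS alone is therefore not shown to be a difference between the cell types.

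**Figure D1:**
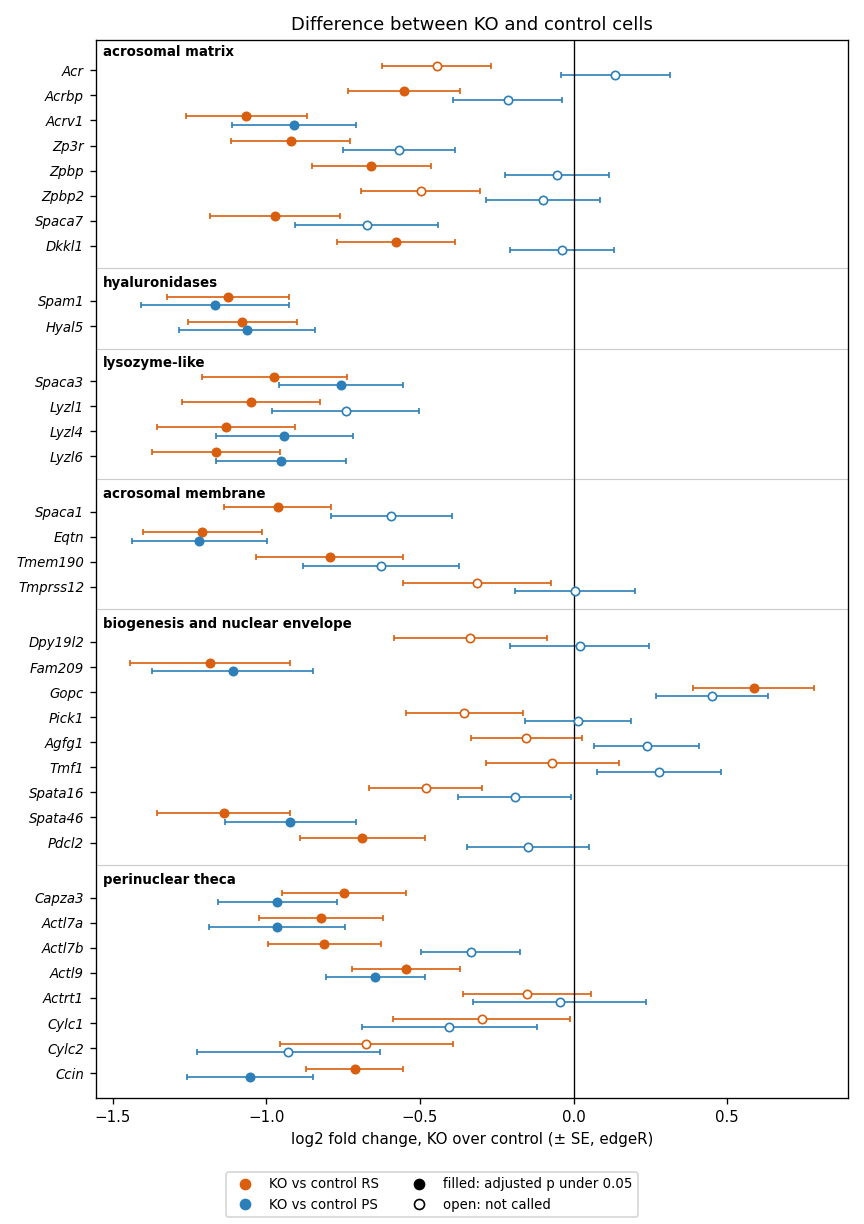
Log2 fold change of KO over control for each member with its standard error from edgeR, in RS (orange) and in PS (blue), grouped by role; filled points passed an adjusted p of 0.05. In RS 34 of 35 points lie left of 0 and in PS 28 do; those of Actrt1, Agfg1 and Tmf1 in RS and of Dpy19l2, Pick1 and Tmprss12 in PS change side under another scaling.

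The calls rested on few libraries. In PS, Ccin and Eqtn were called without KO PS replicate 1, and the other 11 then had an adjusted p of 0.0530 to 0.159. Without KO PS replicate 3, Eqtn and Spam1 were called and the other 11 had 0.0553 to 0.130, and without control PS replicate 3, Actl7a, Capza3, Ccin and Eqtn were called and the other 9 had 0.0614 to 0.266. Every lost call kept its direction. In RS, 11 of the 23 falls were still called without the remaining KO RS replicate, with 0.0525 to 0.153 for the lost calls, and 15 were called without KO RS replicate 3 or without the remaining control RS replicate. Acrv1, Ccin, Eqtn, Hyal5, Lyzl4, Lyzl6, Spaca1, Spam1, Spata46 and Zp3r were called in RS whichever single library was left out. With both remaining replicates left out, a setting chosen after seeing the data, 0 members and 0 genes were called in RS by edgeR, while 18 members were lower and 1 was higher at an unadjusted p under 0.05. In PS the same setting kept all 13 falls, with 15 members called lower and 1220 genes called. With the replicate number as a block, 29 members were called lower and 1 higher in RS, and 20 lower and 2 higher in PS. DESeq2 called 27 members lower in RS and 15 in PS.

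Of the 8 acrosomal matrix proteins, 6 fell in KO RS and 1, Acrv1, fell in KO PS. For this and each later role, the shares over all genes were 12.4% lower and 18.7% higher in RS. In PS they were 4.50% lower and 0.910% higher. The median log2 fold change of the 8 matrix genes was -0.62 in RS and -0.16 in PS. Acrv1, an antigen of the acrosomal matrix that first appears in round spermatids, had 169, 134 and 135 scaled CPM in KO RS, against 250, 369 and 301 in control RS. Its level in PS was 28.2, 37.6 and 43.6 scaled CPM in KO cells and 63.9, 85.2 and 61.9 in control cells. The KO libraries lay below the control libraries in both cell types, with log2 fold changes of -1.06 ± 0.20 (SE, adjusted p = 0.00624) in RS and -0.91 ± 0.20 (adjusted p = 0.0187) in PS. Zp3r, a matrix protein that binds the egg coat, had 163, 105 and 122 scaled CPM in KO RS and 243, 251 and 246 in control RS, without overlap (log2 fold change -0.92 ± 0.19, adjusted p = 0.00920). Its level in PS was 34.01 ± 5.01 in KO and 51.8 ± 5.45 in control (SD, n = 3 each), and the adjusted p of 0.0905 became 0.0169 with the replicate block. Spaca7, a protein released in the acrosome reaction, had 80.3, 93.99 and 81.7 scaled CPM in KO RS and 124, 209 and 173 in control RS, again without overlap (log2 fold change -0.97 ± 0.21, adjusted p = 0.0102). In PS its adjusted p was 0.113, and 0.0215 with the block, at 20.8 ± 4.34 scaled CPM in KO and 34.1 ± 8.53 in control cells.

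The other 5 matrix genes had less than a 2-fold difference in mean between control RS and control PS. Dkkl1, an acrosomal glycoprotein and the highest member of this role in level per length, had 784, 695 and 661 scaled CPM in KO RS, against 867, 1261 and 1084 in control RS. PS libraries held 843, 1017 and 910 in KO and 1020, 1076 and 827 in control cells. The groups were apart in RS and overlapped in PS, with log2 fold changes of -0.58 ± 0.19 (adjusted p = 0.0430) and -0.04 ± 0.17 (adjusted p = 0.928). Acrbp, which binds proacrosin and holds it inactive, had 576, 447 and 428 scaled CPM in KO RS and 649, 761 and 729 in control RS, with no overlap (-0.55 ± 0.18, adjusted p = 0.0427). Zpbp, a zona pellucida binding protein of the matrix, had 263, 201 and 178 scaled CPM in KO RS and 308, 381 and 330 in control RS, also with no overlap (-0.66 ± 0.19, adjusted p = 0.0296). In PS both overlapped between genotypes, with log2 fold changes of -0.21 for Acrbp and -0.05 for Zpbp. The RS call held under 8 of the 14 alternatives for Dkkl1, 6 for Acrbp and 8 for Zpbp. Acr, the protease acrosin, and Zpbp2, the paralog of Zpbp, did not pass in either cell type in the edgeR test. Their adjusted p in RS was 0.0787 for Acr and 0.0719 for Zpbp2, and both were called lower there with the block (0.0193 and 0.0104), with DESeq2 (0.0438 and 0.0394) and without KO RS replicate 1 (0.0294 and 0.0126). Zpbp2 had 323 ± 67.3 scaled CPM in KO RS and 458 ± 43.8 in control RS, and every KO library lay below the control libraries for both genes. Acr had 213 ± 25.02 scaled CPM in KO RS and 291 ± 37.6 in control RS, and 213 ± 31.9 in KO PS and 199 ± 30.3 in control PS (SD, n = 3 each).

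Both hyaluronidases fell in both cell types. By the edgeR fold change Spam1 was 54.1% lower in KO RS, and Hyal5 was 52.6% lower in KO RS and 52.2% lower in KO PS. Spam1 (PH-20), which opens the hyaluronan matrix around the egg and lies at chr6:24791188-24801048 on the + strand of GRCm38, had 83.4, 72 and 60.8 scaled CPM in KO RS and 165, 183 and 127 in control RS. In PS it had 14.4, 16.4 and 16.6 in KO and 39.1, 45.9 and 24.2 in control cells. The KO libraries were the low ones throughout, and the log2 fold change was -1.12 ± 0.20 in RS (adjusted p = 0.00558) and -1.17 ± 0.24 in PS (adjusted p = 0.0136). Hyal5, its neighbour at chr6:24857997-24891958 and another sperm hyaluronidase of the mouse, had 89.1, 86.7 and 72.9 scaled CPM in KO RS and 171, 201 and 156 in control RS. In KO PS it had 18.8, 19.7 and 21.1, against 42.8, 54.2 and 30.9 in control PS. Its groups did not overlap in either cell type (log2 fold change -1.08 ± 0.18, adjusted p = 0.00455 in RS, and -1.06 ± 0.22, adjusted p = 0.0140 in PS). The effects in RS and PS differed by 0.08 ± 0.31 for Spam1 and 0.02 ± 0.27 for Hyal5 on the log2 scale (SE, adjusted p = 0.933 and 0.984 in the edgeR interaction test).

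**Figure D2:**
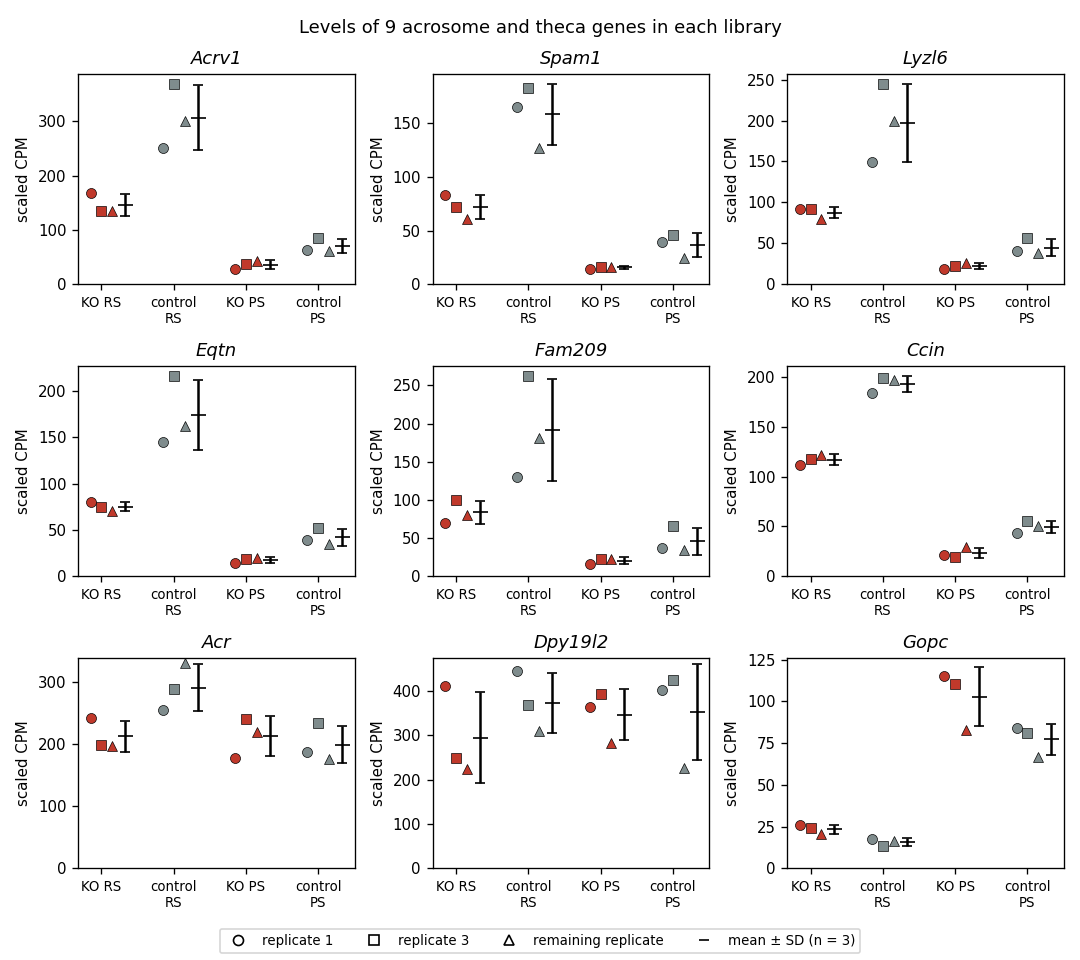
Scaled CPM of 9 members in each library, with KO in red and control in grey and with the mean and SD of 3 libraries beside the points. Acrv1, Spam1, Lyzl6, Eqtn, Fam209 and Ccin have all KO libraries below all control libraries in RS and in PS, Acr is below in RS alone, Dpy19l2 overlaps in both, and Gopc is above in RS.

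All 4 lysozyme-like members fell in KO RS and 3 of them in KO PS, with medians of -1.09 in RS and -0.85 in PS on the log2 scale. These proteins resemble c-type lysozymes, and Spaca3 (SLLP1) lies in the acrosomal matrix. Spaca3 had 126, 116 and 90.2 scaled CPM in KO RS and 163, 290 and 202 in control RS. Its PS values were 24.5, 28.7 and 29.7 in KO and 44.7, 60.2 and 39.1 in control cells. No KO library reached a control library, and the log2 fold change was -0.97 ± 0.24 (adjusted p = 0.0144) in RS and -0.76 ± 0.20 (adjusted p = 0.0449) in PS. The PS call of Spaca3 held under 8 of the 14 alternatives. Lyzl6 had 91.7, 91.5 and 79.4 scaled CPM in KO RS and 149, 244 and 199 in control RS, and 19.3, 22.5 and 26.02 in KO PS and 40.5, 56.3 and 37.9 in control PS. Lyzl4 had 47.5, 46.4 and 43.5 scaled CPM in KO RS and 72.4, 134 and 95.6 in control RS, and 10.3, 9.497 and 12.4 in KO PS and 21.2, 21.9 and 20.6 in control PS. Both were separated in both cell types, with log2 fold changes in RS of -1.16 ± 0.21 for Lyzl6 and -1.13 ± 0.22 for Lyzl4 (adjusted p = 0.00559 and 0.00762), and in PS of -0.95 ± 0.21 and -0.94 ± 0.22 (adjusted p = 0.0182 and 0.0269). Lyzl4 overlaps Lyzl4os on the other strand, and with a strand setting of the counting not given in the sources used here its counts are uncertain. Lyzl1 had 71.9, 78.8 and 62.8 scaled CPM in KO RS and 112, 196 and 137 in control RS (log2 fold change -1.05 ± 0.22, adjusted p = 0.00959). In PS its adjusted p was 0.0908, and 0.0193 with the block, at 18.2 ± 3.91 scaled CPM in KO and 31.3 ± 8.08 in control cells.

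Among the 4 membrane proteins, 3 fell in KO RS and Eqtn fell in both cell types, and the median log2 fold change of the 4 was -0.88 in RS and -0.61 in PS. Equatorin, the product of Eqtn, is a glycoprotein of the acrosomal membrane. Eqtn had 80.1, 74.6 and 70.5 scaled CPM in KO RS, against 145, 217 and 162 in control RS. Spermatocytes had 14.2, 18.8 and 20.01 in KO and 39.7, 52.2 and 34.7 in control cells. Its log2 fold change, the lowest of the 35 members in both cell types, was -1.21 ± 0.19 in RS (adjusted p = 0.00420) and -1.22 ± 0.22 in PS (adjusted p = 0.00855), with no overlap. It was the one member whose PS call held under all 14 alternatives. Spaca1, an inner acrosomal membrane protein without which mouse sperm become round-headed, had 176, 167 and 139 scaled CPM in KO RS and 293, 346 and 308 in control RS. In PS it had 36.4, 44.9 and 48.9 in KO and 60.6, 84.98 and 56.3 in control cells. Its groups were apart in both, with a log2 fold change of -0.96 ± 0.17 in RS (adjusted p = 0.00571) and -0.59 ± 0.20 in PS, where the adjusted p was 0.101 and, with the block, 0.0146. Tmem190, another inner acrosomal membrane protein, had 55.9, 62.4 and 53.3 scaled CPM in KO RS and 64.8, 127 and 108 in control RS (-0.79 ± 0.24, adjusted p = 0.0312). The PS libraries had 14.3 ± 2.87 in KO and 22.8 ± 6.26 in control cells, with an adjusted p of 0.180, and 0.0217 with the block. The RS call of Tmem190 held under 8 of the 14 alternatives. Tmprss12, a testis serine protease, overlapped between genotypes in both cell types, with 10.9 ± 2.94 scaled CPM in KO RS and 13.7 ± 0.929 in control RS (adjusted p = 0.323).

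The 9 genes of acrosome biogenesis and the nuclear envelope were the most mixed role, with 3 falls and 1 rise in KO RS and 2 falls in KO PS. Their median log2 fold change was -0.36 in RS and 0.01 in PS. The falls in both were Fam209 and Spata46. Fam209 encodes a partner of DPY19L2, the inner nuclear membrane protein that anchors the acrosome in the mouse. It had 70.2, 100 and 80.7 scaled CPM in KO RS and 130, 263 and 181 in control RS, and 15.8, 23.02 and 23.2 in KO PS and 36.6, 66.3 and 34.4 in control PS. The libraries were separated in both (log2 fold change -1.18 ± 0.26, adjusted p = 0.0106 in RS, and -1.11 ± 0.26, adjusted p = 0.0263 in PS). Dpy19l2 itself overlapped between genotypes, with 294 ± 102 scaled CPM in KO RS and 374 ± 67.5 in control RS, and 346 ± 56.7 in KO PS and 351 ± 108 in control PS (SD, n = 3 each). Its adjusted p was 0.308 in RS, 0.0322 with the block and 0.0286 without KO RS replicate 1, and 0.975 in PS. Spata46, a protein of the spermatid nuclear envelope, had 101, 113 and 110 scaled CPM in KO RS and 170, 296 and 252 in control RS. Its level in PS was 21.2, 25.4 and 33.5 in KO and 42.9, 62.1 and 50.9 in control cells. It was lower in each KO library than in any control library (log2 fold change -1.14 ± 0.22, adjusted p = 0.00668 in RS, and -0.92 ± 0.21, adjusted p = 0.0235 in PS). Spata46 lies opposite Nos1ap and Dpy19l2 overlaps Cypt4 on the other strand, so their counts carry the same uncertainty over strand.

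Pdcl2, a phosducin-like protein that the mouse acrosome needs to form, fell in KO RS. It had 485, 470 and 389 scaled CPM in KO RS and 623, 918 and 634 in control RS, without overlap (log2 fold change -0.69 ± 0.20, adjusted p = 0.0302). In PS it had 463, 609 and 434 in KO and 611, 672 and 434 in control cells, where the groups overlapped (adjusted p = 0.725). The RS call of Pdcl2 held under 8 of the 14 alternatives. Gopc, a Golgi protein needed to fuse vesicles into the acrosome, was the only member called higher. It had 25.7, 24.4 and 20.4 scaled CPM in KO RS and 17.5, 13.3 and 16.4 in control RS, with every KO library above every control library (log2 fold change 0.59 ± 0.20, adjusted p = 0.0449). That call was lost with DESeq2 size factors (0.0563), with DESeq2 (0.0524), without a filter and with any single library of the 6 left out. In PS Gopc had 115, 110 and 82.5 scaled CPM in KO and 84.02, 81.3 and 66.8 in control cells, with overlap, and the adjusted p of 0.175 became 0.0108 with the block. Acrbp, Zpbp, Zp3r, Spaca7, Gopc, Actl7b, Pick1, Agfg1 and Tmf1 each overlap another annotated gene as well. The vesicle transport genes Pick1, Agfg1 and Tmf1 and the Golgi protein gene Spata16 did not pass in either cell type in the edgeR test. Their means were 73.4 ± 16.5, 212 ± 34.5, 436 ± 109 and 357 ± 69.2 scaled CPM in KO RS, in that order, and 94.4 ± 6.37, 237 ± 22.9, 460 ± 79.5 and 500 ± 17.7 in control RS (SD, n = 3 each), and of these Spata16 alone had every KO library below every control library. In RS their log2 fold changes were -0.36 for Pick1, -0.15 for Agfg1, -0.07 for Tmf1 and -0.48 for Spata16, and with library size alone as scaling Agfg1 and Tmf1 turned above 0 there. With the block, Pick1 (adjusted p = 0.0256) and Spata16 (0.00963) were called lower in RS, and Tmf1 (0.0358) was called higher in PS. Without KO RS replicate 1, Pick1 (0.0281) and Spata16 (0.0115) were called lower in RS, as Spata16 was with DESeq2 (0.0355).

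Of the 8 theca genes, 5 fell in KO RS and 4 of these in KO PS, where the median log2 fold change of the role was -0.69 in RS and -0.79 in PS. Ccin, which encodes calicin, a basic protein of the theca, had 112, 118 and 122 scaled CPM in KO RS and 184, 199 and 197 in control RS. In the spermatocytes it had 21.7, 18.9 and 29.1 in KO and 43.7, 54.99 and 50 in control cells. All KO libraries lay below the control libraries (log2 fold change -0.71 ± 0.16, adjusted p = 0.0108 in RS, and -1.05 ± 0.21, adjusted p = 0.0109 in PS). Capza3, the testis subunit of the actin capping protein, had 133, 150 and 161 scaled CPM in KO RS and 208, 316 and 225 in control RS, and 22.03, 24.9 and 32.04 in KO PS and 53.2, 57.4 and 47.6 in control PS. Its groups were apart in both (-0.75 ± 0.20, adjusted p = 0.0214 in RS, and -0.96 ± 0.19, adjusted p = 0.0120 in PS), but its span lies opposite that of Plcz1, another theca gene. Reads from any exon bases that the pair shares cannot be told apart if strand was not used.

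Of the actin-related members, Actl7a and Actl9 fell in both cell types and Actl7b fell in RS. Actl7a had 187, 204 and 267 scaled CPM in KO RS and 323, 411 and 434 in control RS, and 36.1, 35.4 and 62.1 in KO PS and 77.5, 90.7 and 99.6 in control PS. Actl9, which in mice anchors the acrosome together with ACTL7A, had 241, 262 and 293 scaled CPM in KO RS and 372, 445 and 350 in control RS, and 90.2, 89.3 and 95.1 in KO PS and 157, 156 and 128 in control PS. Both were lower in every KO library, with log2 fold changes in RS of -0.82 ± 0.20 for Actl7a and -0.54 ± 0.18 for Actl9 (adjusted p = 0.0151 and 0.0402), and in PS of -0.97 ± 0.22 and -0.65 ± 0.16 (adjusted p = 0.0221 and 0.0336). The RS call held under 10 of the 14 alternatives for Actl7a and 7 for Actl9. Actl7b, the intronless neighbour of Actl7a on chromosome 4 and the highest theca member in level per length, had 543, 428 and 477 scaled CPM in KO RS and 716, 885 and 951 in control RS. Its PS values were 207, 200 and 245 in KO and 300, 276 and 269 in control cells. It fell in RS (-0.81 ± 0.19, adjusted p = 0.0118), and in PS the adjusted p was 0.259 without and 0.0298 with the block. The basic calyx proteins of Cylc1 and Cylc2 and the X-linked actin-related gene Actrt1 did not pass in the edgeR test. Cylc2 had 185 ± 54.7 scaled CPM in KO RS and 297 ± 106 in control RS, and 32.6 ± 9.37 in KO PS and 63.8 ± 31.6 in control PS (SD, n = 3 each). Its adjusted p was 0.0903 in RS and 0.0887 in PS, and it was called lower with the block (8.59e-04 in RS and 0.00259 in PS) and with DESeq2 (0.0443 and 0.0331). In RS it was also called without KO RS replicate 3 (0.0477), and in PS without a filter (0.0228) and without control PS replicate 1 (0.0432). Actrt1 had 29.1 ± 0.726 scaled CPM in KO RS and 32.5 ± 8.07 in control RS, and Cylc1 had 79.7 ± 23.9 in KO RS and 98.7 ± 34.3 in control RS, with overlap for both. These genes, both on the X chromosome, had log2 fold changes in RS of -0.15 ± 0.21 for Actrt1 and -0.30 ± 0.29 for Cylc1, and that of Actrt1 turned above 0 with library size alone as scaling.

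Set per length of merged exons, the levels of the members spread widely. In control RS the highest was Dkkl1 with 679 scaled CPM per kilobase, followed by Pdcl2 with 608 and Actl7b with 591, and the lowest was Gopc with 1.44. In KO RS, Dkkl1 had 453 and Pdcl2 375, and Gopc had 2.15.

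Most members were higher in round spermatids than in spermatocytes. In control cells 24 of the 35 were called higher in RS than in PS and 2, Tmprss12 and Gopc, were called lower, where 27.8% of 16581 genes were called higher and 30.9% lower, 58.8% in all. In KO cells 22 were higher and the same 2 lower, where 30.5% of the genes were called higher and 27.6% lower, 58.1% in all. The median log2 fold change of RS over PS was 1.95 in KO cells and 2.05 in control cells. All 8 theca genes, all 4 lysozyme-like genes and both hyaluronidases were called higher in RS in both genotypes. Ccin, for example, had a mean of 117 scaled CPM in KO RS and 23.3 in KO PS (log2 fold change 2.33 ± 0.17), and 193 in control RS and 49.6 in control PS (1.96 ± 0.17). Gopc was the reverse, with a mean of 23.5 scaled CPM in KO RS and 103 in KO PS (-2.13 ± 0.18), and 15.8 in control RS and 77.4 in control PS (-2.29 ± 0.19). Acr and Zpbp were called higher in RS in control cells (0.55 ± 0.17 and 0.54 ± 0.18) and not in KO cells (-0.0018 ± 0.17 and -0.03 ± 0.18), and the difference did not pass the interaction test (adjusted p = 0.344 for Acr and 0.341 for Zpbp).

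**Figure D3:**
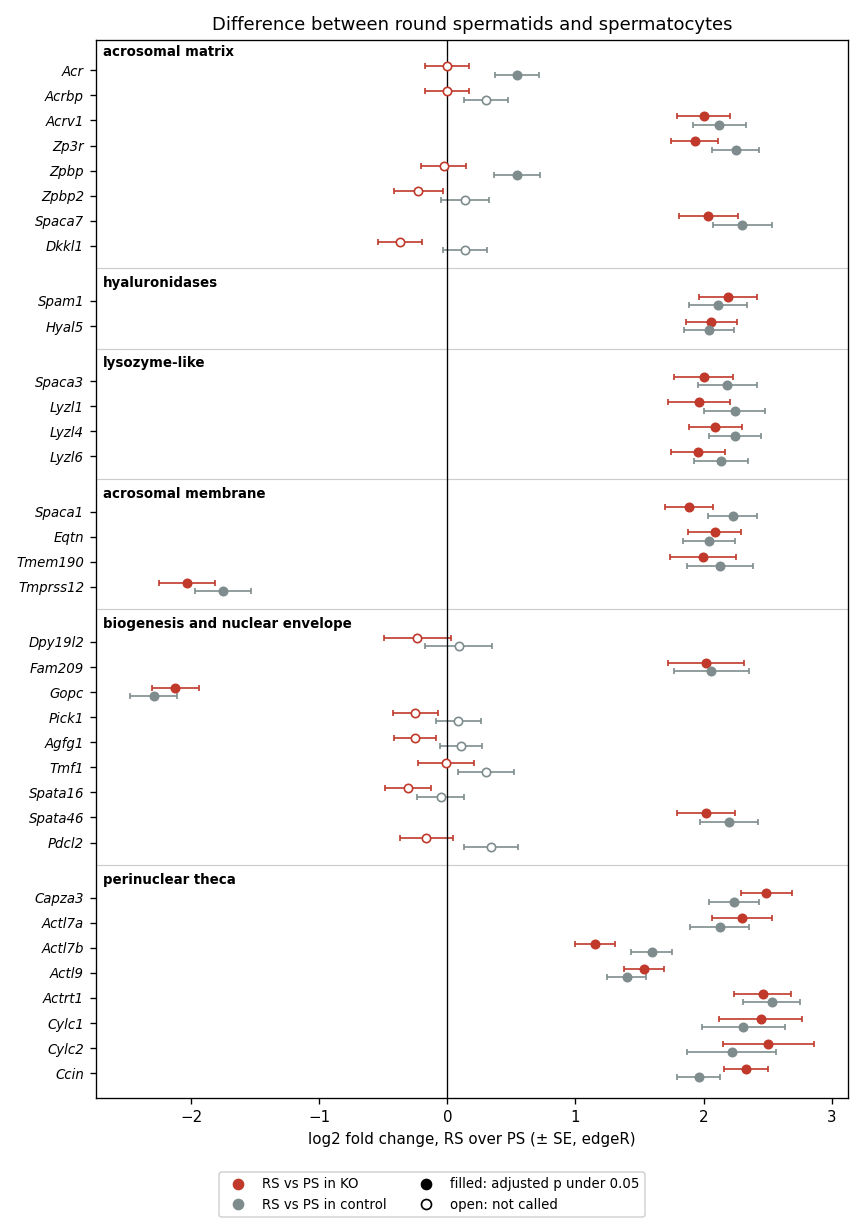
Log2 fold change of RS over PS for each member with its standard error from edgeR, in KO (red) and control (grey) mice; filled points passed an adjusted p of 0.05. The points fall into a set between 1 and 3, a set near 0, and Tmprss12 and Gopc near -2.

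The members can be divided by this step, and the genotype effect is given here for each side. The 22 members called more than 2-fold higher in control RS than in control PS had a median log2 fold change of KO over control of -0.97 in RS, with 19 called lower, and -0.92 in PS, with 13 called lower. The other 13 members had a median of -0.45 in RS, with 4 called lower and 1 higher, and 0.00 in PS, with 0 called. Among all genes tested, 12.4% were called lower and 18.7% higher in RS, and 4.50% and 0.910% in PS. The step and the genotype comparisons share the control libraries, so these values are a description and were not tested against each other. In PS the 22 members stood at 17.6% to 45.0% of their RS level in KO cells (median 24.5%) and at 17.3% to 37.9% in control cells (median 22.4%).

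Further genes of the acrosome and theca were taken as a list of their own. That list was chosen with earlier results of these data known and read in the same libraries, so its counts are a description. Of these 37 genes, 36 could be tested and Syt6 could not. In RS 13 were called lower and 0 higher, against 12.4% and 18.7% of all genes, with a median log2 fold change of -0.56. In PS 13 were called lower and 0 higher, against 4.50% and 0.910% of all genes, with a median of -0.37. The largest falls in KO RS were those of Spaca4, a membrane protein of the acrosome (-1.21 ± 0.26, adjusted p = 0.0102), the actin-related Actl10 (-1.002 ± 0.21, adjusted p = 0.00969), Izumo3 (-0.97 ± 0.19, adjusted p = 0.00712), Calr3, a testis calreticulin (-0.89 ± 0.22, adjusted p = 0.0158), and Spaca9 (-0.86 ± 0.29, adjusted p = 0.0432). The largest in KO PS were those of the serine protease gene Prss55 (-1.60 ± 0.30, adjusted p = 0.00924), Actrt2 (-1.35 ± 0.21, adjusted p = 0.00558), Calr3 (-1.32 ± 0.30, adjusted p = 0.0212), Prss37 (-1.28 ± 0.34, adjusted p = 0.0462) and Galntl5 (-1.26 ± 0.20, adjusted p = 0.00558). By role, 9 of 16 matrix and membrane genes, 1 of 13 tested biogenesis genes and 3 of 7 theca genes fell in RS, and 8, 1 and 4 fell in PS.

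Markers of spermatids outside the acrosome moved with the result in PS. Of 12 such genes, 10 were called lower in KO PS (median log2 fold change -1.502), against 4.50% of all genes. In KO RS 1 of the 12, Hils1, was called lower (median of the 12, -0.51), against 12.4% of all genes. The summed level of the 12 was 597 to 1371 scaled CPM in KO PS and 1727 to 3881 in control PS, without overlap, and 7001 to 17410 in KO RS and 11950 to 26420 in control RS, with overlap. Prm2, the most abundant of them, had 213 ± 81.8 scaled CPM in KO PS and 809 ± 331 in control PS (SD, n = 3 each). The step from PS to RS of these 12 had a median log2 fold change of 3.39 in KO cells and 2.50 in control cells. All 12 were detected in both PS groups, and all 12 had a log2 fold change of KO over control below 0 in PS. In RS all 12 were below 0 as well, at -0.96 to -0.01, and 5 were lower at an unadjusted p under 0.05. The part of these 12 genes in the falls of the members in PS or RS was not tested. The 12 markers of pachytene spermatocytes summed to 4315 to 5682 scaled CPM in KO PS and 4575 to 4963 in control PS, with 0 called in PS, and to 2441 to 3095 in KO RS and 2675 to 3373 in control RS. In RS 2 of the 12, Hormad1 (0.77 ± 0.24, adjusted p = 0.0360) and Spata22 (1.08 ± 0.30, adjusted p = 0.0232), were called higher, against 18.7% of all genes. The median log2 fold change of the 12 in RS was 0.27.

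Among markers of other cells, most spermatogonial and macrophage genes were called higher in KO RS. The 10 spermatogonial genes summed to 193 to 277 scaled CPM in KO RS and 73.4 to 105 in control RS, with 7 called higher, and the 8 macrophage genes to 124 to 177 in KO RS and 58.8 to 69.5 in control RS, with 7 called higher. Sertoli genes summed to 79.6 to 358 scaled CPM in KO RS and 64.5 to 105 in control RS, with 3 of 8 tested called higher, and Leydig genes to 23.1 to 155 in KO RS and 18.0 to 60.8 in control RS, with 2 of 8 called higher. The median log2 fold change in RS was 1.38 for the tested Sertoli genes and 1.40 for the Leydig genes, with 0 values below 0. At an unadjusted p under 0.05, 7 Sertoli and 4 Leydig genes were higher in KO RS. Among all genes tested in RS, 18.7% were called higher. In RS the summed level of the 8 peritubular genes overlapped between genotypes and 0 were called, with a log2 fold change of -0.53 for Actg2, the most abundant, and values above 0 for the other 7 (median of the 8, 0.47). In PS they summed to 29.8 to 49.1 scaled CPM in KO and 71.2 to 140 in control cells, with 3 called lower, against 4.50% of all genes. The 10 Sertoli genes summed to 960 to 1811 in KO PS and 559 to 1292 in control PS, with 0 called. Their median log2 fold change in PS was 0.68, and 5 were higher at an unadjusted p under 0.05. In PS 0 of 8 Leydig and 0 of 7 tested macrophage genes were called. Of 9 tested spermatogonial genes 1, Stra8, was called higher, against 0.910% of all genes. Beside these sums, the 35 members summed to 6111 to 7382 scaled CPM in KO RS and 9400 to 11980 in control RS. The most abundant genes of these lists by mean over the groups were Id4, Mrc1, Clu, Cyp17a1 and Actg2, with 11.4 ± 6.702, 18.4 ± 1.497, 95.2 ± 77.5, 29.8 ± 26.4 and 194 ± 42.6 scaled CPM in KO RS and 7.83 ± 2.08, 7.67 ± 2.301, 27.01 ± 10.8, 13.1 ± 11.1 and 282 ± 60.3 in control RS (SD, n = 3 each). None of these genes was at 0 in all libraries of a group, and the part of other cells in the falls of the members was not tested.

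**Figure D4:**
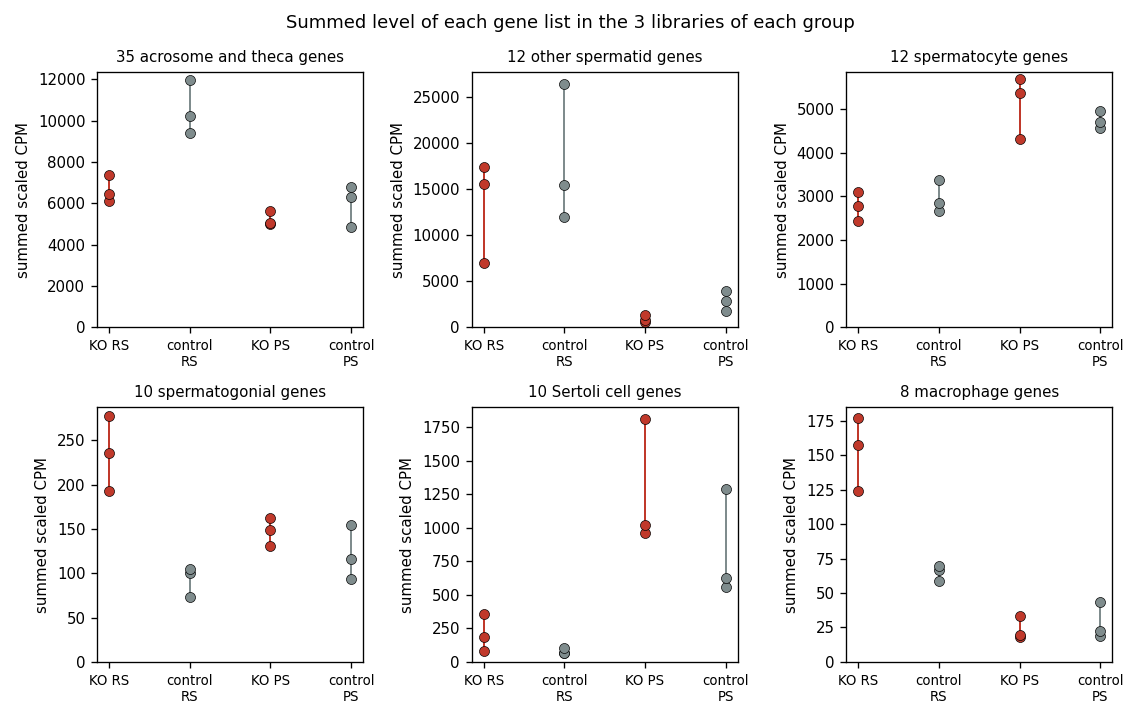
Summed scaled CPM of the 35 members and of 5 marker lists in each of the 3 libraries of a group, with KO in red and control in grey; the line joins the lowest and highest library. The members are lower in KO RS than in control RS without overlap and overlap in PS, while the other spermatid genes overlap in RS and are lower in KO PS without overlap.

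The scaling of the libraries bore on the counts in both cell types. In PS, library size alone gave 9 members called lower in place of 13, with a member median of -0.61. Actl7a, Fam209, Spaca3 and Spata46 lost their PS calls there. With library size alone the median log2 fold change of all genes in RS was 0.28 in place of 0.02, 4236 genes were called higher and 779 lower in place of 2974 and 1968, and 15 members were called lower and 1 higher with a member median of -0.45. In the authors' deposited table, 26 members had a log2 fold change of KO over control below 0 with an adjusted p under 0.05 in RS and 18 in PS, and 0 had one above 0 in either. The member medians in the authors' deposited table were -0.85 in RS and -0.67 in PS, and Gopc had 0.45 there in RS with an adjusted p of 0.0970.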

How the data were processed

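RNA was measured in 12 libraries, 3 for each of KO RS, control RS, KO PS and control PS, from TRIzol extracts and TruSeq Stranded Total RNA libraries, per the labels' protocols. For the deposited counts per gene, the submitters' processing notes name HISAT2 2.1.0, HTSeq, DESeq2 and the build mm10 as what the authors used. With the annotation and the strand setting not given in the sources used here, genes that overlap others or have near-identical copies are uncertain. The authors' deposited log2 fold changes, p-values and adjusted p-values were copied as the authors' own, and 12 columns of normalized values were not used. In each group the unnumbered count column matched replicate 1 through its description, the column numbered 2 matched the sample titled replicate 3, and the column numbered 3 matched its group only and is called the remaining replicate.

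Differences between KO and control were tested within RS and within PS on the counts as deposited, with edgeR 4.0.16 (quasi-likelihood test; R 4.3.3), after TMM scaling and filterByExpr, with Benjamini-Hochberg adjustment over all genes tested and calls made at 0.05. RS and PS were fitted apart, on 6 libraries each, which leaves 4 residual degrees of freedom (2 when the replicate is a block), and RS over PS and the interaction came from 1 fit of 12 libraries with 8. Standard errors came from the same fits. The scripts were tested on simulated data.

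The alternatives were DESeq2 size factors, library size alone, no filter, DESeq2 1.42.0, limma 3.58.1 with voom, a replicate block, 1 fit of all libraries and each library left out, and, chosen after seeing the data, both remaining replicates of a cell type left out. Gene spans came from GENCODE M21 on GRCm38. Overlaps between genes were taken from whole spans, so shared exons were not looked for. Every member was named, with values in every library for those called and for the most abundant of each role, and the others by mean or range; of the other lists, at most 5 called genes in each direction with a mean of at least 5 CPM, and the most abundant marker. The members and lists were chosen with earlier results of these data known.

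Deviations from group means of libraries with the same number correlated at 0.310 to 0.408 within a cell type and 0.134 to 0.495 across cell types, and libraries with different numbers at -0.416 to 0.00420 and -0.478 to 0.199. All same-number values were over 0.1, so libraries with 1 number were taken as pairs in the replicate block, with replicates 1 and 3 matched by their labels and the last pair by elimination. The main tests had the group as their only factor and did not use the pairs. Counts of each pair of replicates differed by more than sampling noise. Library totals of 11205732 to 17467583 counts set the precision, and floors cover counting error only. The spread between these samples is what the p-values rest on.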

Additional observations from a re-analysis of the deposited data

How the results depend on the processing

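The medians of the members kept their direction under every alternative in RS, in PS and in both RS over PS comparisons, and their direction in the interaction under all but library size alone, where the median was 0.072. Genes called in PS numbered 826, and 554 with library size alone, 1264 with DESeq2, 3476 with the replicate block and 288 to 1592 with 1 library left out. Members called lower in PS numbered 13, 9 with library size alone, 15 without both remaining replicates, 20 with the block and 2 to 16 with 1 library left out, and members called higher 0, and 2 with the block. Genes called in RS numbered 4942, 8736 with the block, 1546 to 6391 with 1 library left out and 0 (4103 at an unadjusted p under 0.05) without both remaining replicates, chosen after seeing the data. Members called lower in RS numbered 23, 15 with library size alone, 11 to 28 with 1 library left out and 0 without both remaining replicates (18 unadjusted). Members called higher in RS numbered 1, and 0 with DESeq2 size factors, without a filter, with DESeq2, without both remaining replicates (1 unadjusted) and with any 1 library left out (0 to 0). Genes called in the interaction numbered 3, 35 with library size alone, 6 without a filter, 119 with DESeq2, 1285 with the block and 0 to 6 with 1 library left out, with 0 members in each of these. Members lower in RS than PS in KO cells numbered 2, 5 with the block and 2 to 6 with 1 library left out. The replicate block ended no call of a member in RS or PS.

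Values near 0 that were not called changed sign. In PS, Dpy19l2 had -0.0051 with DESeq2 size factors, -0.0033 with library size alone, -0.015 without a filter, -0.0051 with DESeq2, -0.021 in the fit of 12 libraries and -0.13 without both remaining replicates, where Acr had -0.014. In the first 5 of these settings Pick1 had -0.0048, -0.027, -0.020, -0.0048 and -0.028, and Tmprss12 had -0.013, -0.042, -0.030, -0.013 and -0.037, with -0.017 under voom and -0.018 with the block. In RS with library size alone, Actrt1 had 0.12, Agfg1 0.10 and Tmf1 0.18. With 1 library left out the PS ranges were -0.15 to 0.052 for Actrt1, -0.17 to 0.036 for Dkkl1, -0.25 to 0.18 for Dpy19l2, -0.071 to 0.094 for Pick1, -0.12 to 0.13 for Tmprss12, -0.22 to 0.028 for Zpbp and -0.31 to 0.027 for Zpbp2, and the RS ranges -0.48 to 0.012 for Cylc1 and -0.31 to 0.071 for Tmf1. For all members and alternatives, 397 values in PS and 388 in RS kept both their direction and their call, 39 in PS and 79 in RS kept the direction and lost a call, 18 and 16 kept it and gained one, and 36 and 7 changed direction. The cause of these changes was not tested.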
